A study of Homo sapiens and Mus musculus with 57 samples.

Results

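TAK-981 and ML-792, inhibitors of the SUMO-activating enzyme, were compared directly with each other in HCT116 and MDA-MB-231 cells together, so that a difference between the compounds common to both lines was measured. The comparison took 12 of the 57 libraries of the series by their labels: 3 libraries with TAK-981 and 3 with ML-792 from each line, all after 16 h at 1 uM. HCT116 is a human colorectal carcinoma line and MDA-MB-231 a human breast carcinoma line, and the 6 libraries of these lines with the vehicle DMSO served as the background for the responses to the compounds. The labels gave no genetic change in either line. Cells were grown in wells seeded in triplets, and the labels do not say that the wells were separate cultures, so the p-values below speak only of how these libraries vary, and that variation may be technical. The compounds formed 1 pair, at 1 dose and 1 time, and RNA was the only readout.

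SUMO proteins are small ubiquitin-like modifiers that are attached to lysines of other proteins. The heterodimer of SAE1 and UBA2 activates SUMO, E3 ligases such as the PIAS proteins and RANBP2 help its transfer to substrates, and SENP proteases remove it again. Many substrates are transcription factors and chromatin proteins, and SUMO on them is mostly linked to repression, including that of interferon genes and silenced chromatin. In tumour cells, conjugation of SUMO is also needed for orderly mitosis.

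The 12 libraries held 18187107 to 25562331 estimated counts, and 16957 to 17947 genes were detected in them. The line labels were checked with marker genes. All 12 epithelial markers reached 1 CPM in HCT116, as did 9 of 12 in MDA-MB-231. Their summed level was 4390 to 5030 CPM in the treated libraries of HCT116 and 1300 to 1390 CPM in those of MDA-MB-231. Of 15 mesenchymal markers, 13 reached 1 CPM in treated MDA-MB-231 and 9 or 10 in treated HCT116, with summed levels of 4650 to 5080 CPM and 642 to 661 CPM. Colorectal markers were mostly absent from HCT116, with CDX1 and CEACAM5 at 0, and in MDA-MB-231 the hormone receptor genes ESR1 and PGR were at 0. Replicate 1 of TAK-981 in HCT116 stood apart from the other libraries of the line. Its mitochondrial genes took 9.24% of the counts against 7.42% to 7.95% in the other 5 treated libraries. On the first principal component of the treated HCT116 libraries, the main axis of their variation over all genes tested, it lay at 39.1. The other 5 lay between -18.7 and 4.8, and this axis held 38.5% of the variance. The counts and genes that this library bears on most are also given without it. Across both lines, the compounds did not differ past the threshold in any of 7 library measures (lowest adjusted p = 0.7, exact two-sided permutation test within lines over 400 relabelings, for which the smallest possible p is 0.005). The mitochondrial share, for example, was higher with TAK-981 by 0.279 percentage points (p = 0.425 by the same exact test).

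The genes of the target enzyme and of its modifier were at about the same level with both compounds. UBA2, the catalytic subunit, was at 153, 138 and 134 CPM (counts scaled to the size of the library by TMM) in the TAK-981 libraries of HCT116 and at 133, 140 and 138 CPM with ML-792. MDA-MB-231 cells held it at 135, 139 and 143 CPM with TAK-981 and at 136, 136 and 133 CPM with ML-792. The groups overlapped in both lines, and the common log2 difference, TAK-981 minus ML-792, was 0.05 (SE 0.0364, 95% interval -0.03 to 0.12). In such bulk RNA, fewer cells with a transcript and less of it per cell cannot be told apart. SAE1, the other subunit, differed by 0.01 (SE 0.0344, interval -0.06 to 0.08).

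SUMO3, one of the modifiers, was at 37.6, 40.0 and 36.2 CPM in the DMSO libraries of HCT116. It stood at 78.1, 79.6 and 79.6 CPM with TAK-981 and at 80.9, 87.2 and 81.9 CPM with ML-792. Every treated library of HCT116 was thus well above DMSO, with a narrow gap between the compounds. In MDA-MB-231, SUMO3 was at 310, 320 and 306 CPM with TAK-981, 304, 312 and 314 CPM with ML-792, and 294, 288 and 294 CPM with DMSO. The mean response of SUMO3 to both compounds in both lines was a rise of 0.59 on the log2 scale (SE 0.0298, edgeR adjusted p = 4.49e-12), and the difference between the compounds was -0.03 (SE 0.0334, interval -0.10 to 0.04). SUMO2 rose by 0.23 (SE 0.0346, edgeR adjusted p = 4.02e-05), with a difference between the compounds of -0.02 (interval -0.10 to 0.07).

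All 27 measured genes of the SUMO pathway had intervals within 1.5-fold either way, and their common differences ran from -0.17 to 0.09. At an unadjusted p under 0.05, 4 of the 27 were lower with TAK-981 and 0 higher, against 5.31% and 6.31% of all genes tested, and 0 of the 27 passed the adjusted threshold by edgeR. The largest differences were those of the E3 ligase PIAS1 (-0.17, SE 0.0679) and of the protease SENP2 (-0.15, SE 0.053). SENP2 was at 31.7, 36.3 and 38.0 CPM with TAK-981 and at 39.7, 44.1 and 44.3 CPM with ML-792 in HCT116. In MDA-MB-231 it was at 49.3, 48.8 and 50.7 CPM with TAK-981 against 50.7, 51.6 and 51.2 CPM, so that the difference was -0.27 in HCT116 and -0.04 in MDA-MB-231. Without replicate 1 of TAK-981 in HCT116, the common difference of SENP2 was -0.11 (SE 0.0416) and that of PIAS1 -0.12 (SE 0.0553). At an unadjusted p under 0.05, 4 of the 27 genes were then lower with TAK-981 and 1 higher, against 5.81% and 5.95% of all genes.

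Across all genes, 0 of 15430 passed the adjusted threshold in the common difference by edgeR's quasi-likelihood test (0%, lowest Benjamini-Hochberg adjusted p = 0.152). At an unadjusted p under 0.05, 974 genes were higher with TAK-981 (6.31%) and 820 higher with ML-792 (5.31%), 11.6% together. DESeq2 called 24 genes on the same counts, 16 higher with TAK-981 and 8 higher with ML-792, and limma on log2 FPKM called 0, with 1511 genes at an unadjusted p under 0.05. Leaving out replicate 1 of TAK-981 in HCT116 gave 5 calls by edgeR and leaving out replicate 3 of ML-792 in MDA-MB-231 gave 1, while each other library left out gave 0. A test that misses its threshold does not show that the compounds act alike, so the intervals are given. The median size of the common log2 difference was 0.0675 and the median half-width of its 95% interval 0.137. For 83.8% of genes the interval lay within 1.5-fold either way, and for 95.1% within 2-fold. Among the 9950 genes that averaged 10 CPM or more, 99.7% of the intervals lay within 1.5-fold and 94.7% within 1.25-fold. Intervals wholly beyond 1.5-fold were found for 8 genes, 0 of which had a mean of 10 CPM or more.

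**Figure D1:**
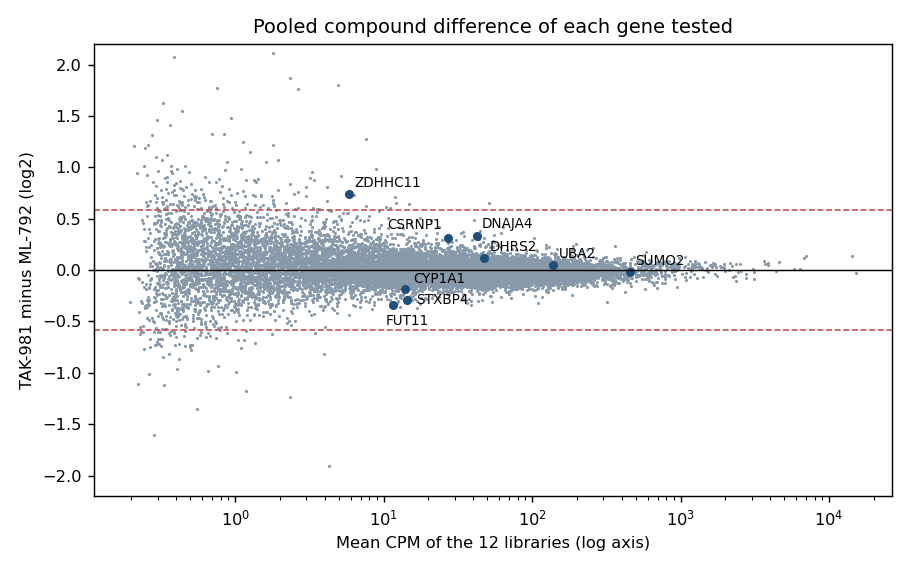
Common difference between the compounds for each gene: mean CPM of the 12 libraries on a logarithmic x axis and log2 difference, TAK-981 minus ML-792, on the y axis, one point per gene, with genes named in the text labelled. Most genes lie close to 0, the scatter is widest at low levels, and 0 of 15430 genes passed the adjusted threshold.

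The genes of smallest p differed by little, and some of them in the same direction in both lines, which a ranking by the p of the common difference favours. CSRNP1, an AXIN1-induced nuclear protein of the immediate early kind, was at 28.3, 30.9 and 27.2 CPM with TAK-981 and at 23.2, 22.4 and 20.3 CPM with ML-792 in HCT116. The MDA-MB-231 values were 33.0, 31.5 and 29.8 CPM with TAK-981 and at 27.8, 26.3 and 25.8 CPM with ML-792. Neither pair of groups overlapped, and the common difference was 0.32 (SE 0.0519, interval 0.21 to 0.43, edgeR adjusted p = 0.152). By line, the difference of CSRNP1 was 0.40 in HCT116 and 0.24 in MDA-MB-231. With DMSO, CSRNP1 was at 22.6, 27.7 and 25.8 CPM in HCT116 and at 30.2, 28.9 and 33.0 CPM in MDA-MB-231. DMSO thus overlapped both compounds in HCT116, and in MDA-MB-231 it overlapped TAK-981 but lay above ML-792. CSRNP1 was one of the 5 genes called without replicate 1 of TAK-981 in HCT116.

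AMH, the anti-Müllerian hormone, was at 19.1, 16.5 and 15.8 CPM with TAK-981 and at 12.3, 8.95 and 11.9 CPM with ML-792 in HCT116. Its groups in MDA-MB-231 overlapped slightly, with 8.61, 7.15 and 8.41 CPM against 6.30, 5.33 and 7.38 CPM. The common difference of AMH was 0.51 (SE 0.1, edgeR adjusted p = 0.152). ZDHHC11, a member of the palmitoyltransferase family with a near-identical copy that makes its counts uncertain, differed by 0.74 (SE 0.141). MST1P2, a pseudogene of MST1 with the same uncertainty, differed by 0.52 (SE 0.101), and DNAJA4, an HSP40 co-chaperone, by 0.34 (SE 0.0658). MST1P2 and DNAJA4 were below 1 CPM in every MDA-MB-231 library, so their values rest on HCT116.

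In the other direction, MAOA, which breaks down serotonin and noradrenaline, was at 10.9, 9.71 and 11.2 CPM with TAK-981 and at 13.1, 12.5 and 14.0 CPM with ML-792 in HCT116. In MDA-MB-231 it was at 8.97, 9.33 and 8.98 CPM with TAK-981 and at 11.3, 11.6 and 10.0 CPM with ML-792. The groups were apart in both lines, with a common difference of -0.29 (SE 0.0633, edgeR adjusted p = 0.169). FUT11, of the fucosyltransferase family, differed by -0.34 (SE 0.0726), STXBP4, a syntaxin-binding protein, by -0.29 (SE 0.0588), and MANEA, an endomannosidase of glycoprotein processing, by -0.21 (SE 0.0493), each with no overlap between the compounds in either line. DSC2, a desmosomal cadherin, differed by -0.28 (SE 0.0649) but was below 1 CPM in MDA-MB-231.

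The 24 genes that DESeq2 called included CSRNP1, ZDHHC11, AMH and MST1P2 among those higher with TAK-981, and STXBP4 and FUT11 among those higher with ML-792. Others, chosen here after their values were seen, were HES1, a Notch target (edgeR common difference 0.34), DUSP2, a phosphatase of MAP kinases (0.47), and SPRY4, an inhibitor of MAP kinase signalling (0.22). KITLG, the ligand of the KIT receptor (-0.18), and SEMA3C, a secreted semaphorin (-0.18), were called in the other direction. None of the genes just named passed the adjusted threshold in the common difference by edgeR.

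The difference between the compounds was set beside the response to them. The mean response of both compounds and both lines against DMSO, a contrast of equal groups that does not use the difference between the compounds, was called for 3648 of 15668 genes (23.3%). Of these, 1869 rose (11.9%) and 1779 fell (11.4%). The difference between the compounds could be tested for 3637 of the 3648 genes, and 463 of them, or 12.7%, had an unadjusted p under 0.05 for it, against 11.6% of all genes. Their median difference between the compounds had a size of 0.0553 on the log2 scale, beside a median size of the response of 0.22. Over all genes tested, most of which had no called response, these sizes were 0.0675 and 0.103. Intervals within 1.5-fold were found for 95.9% of them. Among the 1865 rises TAK-981 was the higher compound for 982 genes, and among the 1772 falls for 847. Of the 99 responses of 2-fold or more, 62 had an interval within 1.5-fold and 90 within 2-fold.

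Among the genes of largest mean response, the compounds overlapped for some and not for others. ASMTL, a protein of the acetylserotonin methyltransferase family, was at 41.4, 48.6 and 49.7 CPM with DMSO in HCT116. It reached 325, 344 and 322 CPM with TAK-981 and 299, 347 and 296 CPM with ML-792. The compounds overlapped there, and in MDA-MB-231, where ASMTL went from 32.8, 31.9 and 31.7 CPM to 55.6, 51.2 and 50.7 CPM with TAK-981 and 47.9, 51.0 and 52.3 CPM with ML-792. Its mean response was a rise of 1.73 (SE 0.0446, edgeR adjusted p = 2.02e-16), and its difference between the compounds was 0.07 (SE 0.0442, interval -0.02 to 0.16).

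DHRS2, a short-chain dehydrogenase, rose by 3.15 on the log2 scale (SE 0.146) and differed between the compounds by 0.12 (interval -0.02 to 0.26). It stood at 4.93, 5.98 and 4.92 CPM with DMSO in HCT116, at 110, 88.8 and 92.2 CPM with TAK-981 and at 93.4, 84.1 and 89.4 CPM with ML-792. ZSCAN31, a zinc finger protein, rose by 1.94 (SE 0.0848) and differed by -0.04 (interval -0.17 to 0.09). CYP1A1, a target of the aryl hydrocarbon receptor that oxidises aromatic compounds, rose by 1.88 (SE 0.0723). Its mean was higher with ML-792 in both lines, with a common difference of -0.18 (SE 0.058, edgeR adjusted p = 0.309). Its groups were apart in HCT116, with 7.35, 7.15 and 7.54 CPM with TAK-981 against 8.06, 8.35 and 8.94 CPM, and overlapped in MDA-MB-231.

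Among the falls, ADAM19, a membrane metalloprotease, went from 149, 157 and 168 CPM with DMSO in HCT116 to 35.5, 47.2 and 53 CPM with TAK-981 and 56.0, 53.5 and 58.8 CPM with ML-792. In MDA-MB-231 the values were 52.3, 62.2 and 58.2 CPM with DMSO, 45.1, 44.9 and 48.1 CPM with TAK-981 and 42.8, 46.1 and 45.5 CPM with ML-792. Its mean response was -0.996 (SE 0.0576, edgeR adjusted p = 2.87e-11), and the common difference between the compounds was -0.13 (SE 0.0811, interval -0.31 to 0.04), or -0.06 (SE 0.0467) without replicate 1 of TAK-981 in HCT116. NOG, an antagonist of bone morphogenetic proteins, fell in the mean response by 1.07 (SE 0.229). It was below 1 CPM in HCT116, and in MDA-MB-231 it was at 24.7, 19.3 and 20.6 CPM with TAK-981 against 24.3, 20.5 and 24.8 CPM with ML-792. MPZL2, a cell adhesion protein of the immunoglobulin family, fell by 0.94 (SE 0.0882). It was at 15.4, 13.9 and 14.3 CPM with TAK-981 and at 16.0, 16.1 and 16.2 CPM with ML-792 in HCT116. In MDA-MB-231, where DMSO was at 1.77, 1.98 and 2.25 CPM, it was at 0.525, 0.592 and 0.467 CPM against 0.794, 0.646 and 0.714 CPM. TAK-981 was the lower compound without overlap in both lines, with a common difference of -0.18 (SE 0.0806, edgeR adjusted p = 0.409). NDUFC2-KCTD14, a read-through of neighbouring genes whose counts are uncertain, had a common difference of 0.72 (SE 0.276, edgeR adjusted p = 0.363), and in HCT116 it was at 5.61, 3.76 and 1.95 CPM with TAK-981 against 1.81, 1.29 and 1.57 CPM. Several other genes of large mean response were near 0 in one of the lines, among them TNFRSF6B, CACNA1H, VEGFC, APOL1 and HOXB8.

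**Figure D2:**
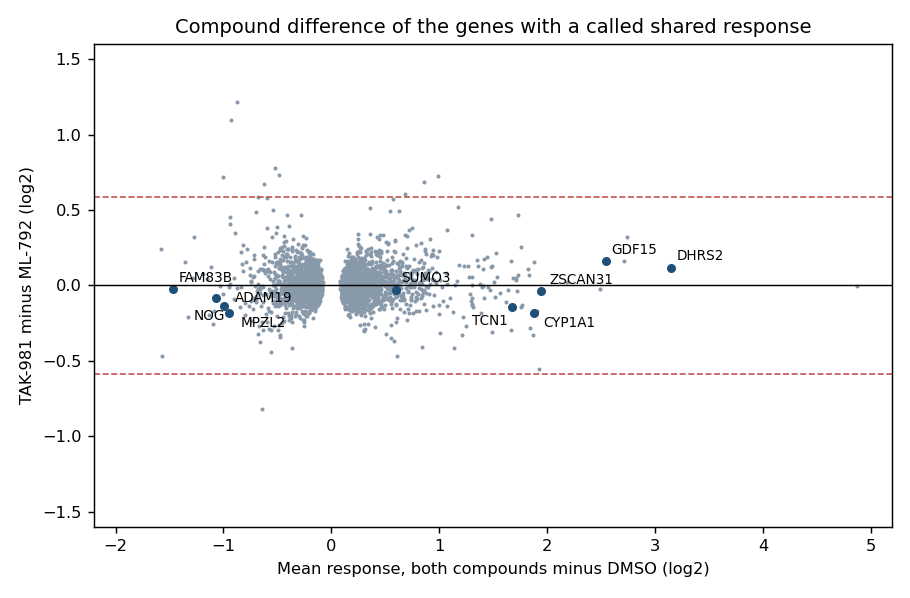
Mean response to both compounds against DMSO on the x axis and difference between the compounds, TAK-981 minus ML-792, on the y axis, both as log2 values, one point for each of 3610 genes with a called response. Responses spread over several log2 units while the differences between the compounds stay near 0, mostly inside the dashed lines at 1.5-fold.

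Gene groups were described by how many members reached an unadjusted p under 0.05 in each direction, beside 6.31% and 5.31% of all genes. Of 24 lists of gene functions, 14 held a share above the 11.6% of all genes, their median differences ran from -0.08 to 0.12, and 0 members passed the adjusted threshold by edgeR. The largest shares were those of the immediate early genes (52.2%), the silencing complexes (40.0%) and the ATF4 and CHOP stress genes (30.4%). The median of all genes was 0.00425.

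**Figure D3:**
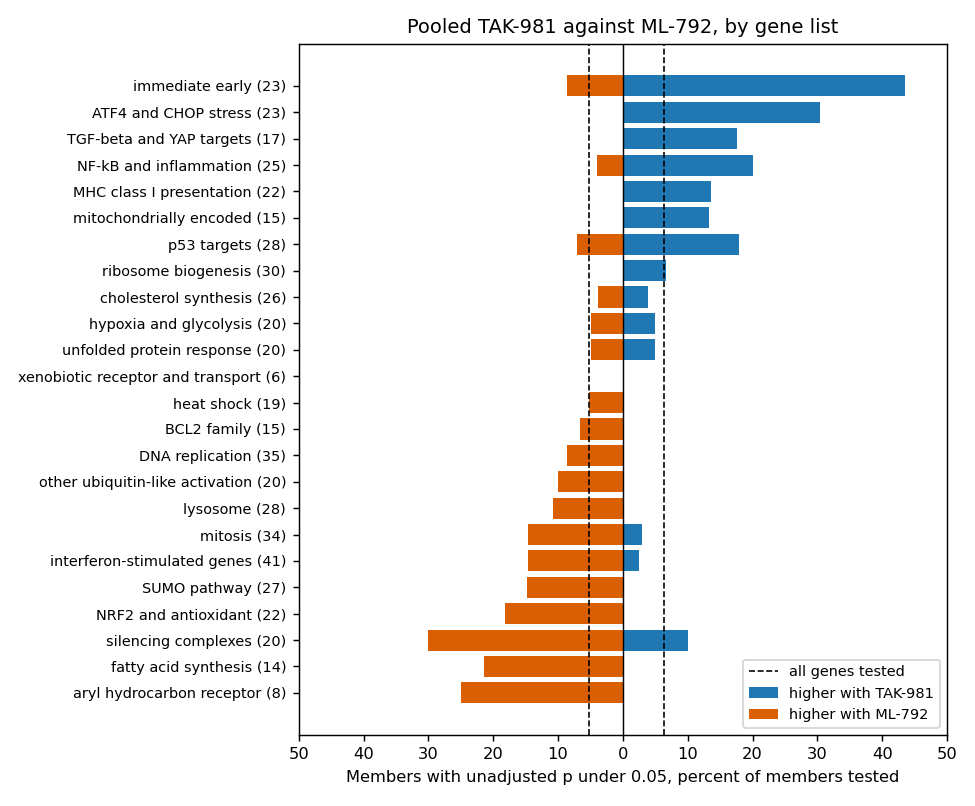
Share of the members of each gene list at an unadjusted p under 0.05 in the common difference, higher with TAK-981 or higher with ML-792, in percent on the x axis, with dashed lines at 6.31% and 5.31% for all genes. Immediate early genes and ATF4 and CHOP stress genes lean to TAK-981, and the silencing complexes, with 2 and 6 of 20 members, to ML-792.

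Immediate early genes are transcribed within minutes of a growth or stress signal, mostly through factors such as SRF and CREB that are already present. Of 23 measured, 10 were higher with TAK-981 and 2 higher with ML-792 at an unadjusted p under 0.05, with a median of 0.10, and 0 passed the adjusted threshold in the common difference by edgeR. The TGACG half-site of CREB, and the full TGACGTCA, were searched on both strands in the 250 bases before each start in RefSeq (build GRCh38.p14), with the half-site counted also inside the full site. Entries of the 23 genes were looked up with 1 chromosome left out, and were found for 17 genes, with 23 promoters. Of these promoters 12 held the half-site, and the full site was found for 1 gene. Of all 35116 promoters, with that chromosome included, 21.2% held the half-site and 1.65% the full site. The promoters below are shown because the levels of these genes by line are described next (SPRY4, FOS and FOSB with 1 half-site each, and NR4A1 with 0 in each of 2 entries, of which 1 is shown), or because they hold the full site (DUSP1). Capitals mark the half-site on either strand, CGTCA being its reverse, and the full site. A match in these letters is a description and not a measured site.
SPRY4, chr5:142324248-142324497, strand -: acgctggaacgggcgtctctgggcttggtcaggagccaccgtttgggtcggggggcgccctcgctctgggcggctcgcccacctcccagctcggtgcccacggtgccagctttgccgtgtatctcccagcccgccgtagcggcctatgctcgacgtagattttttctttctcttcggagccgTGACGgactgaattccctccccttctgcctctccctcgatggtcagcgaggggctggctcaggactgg
FOS, chr14:75278578-75278827, strand +: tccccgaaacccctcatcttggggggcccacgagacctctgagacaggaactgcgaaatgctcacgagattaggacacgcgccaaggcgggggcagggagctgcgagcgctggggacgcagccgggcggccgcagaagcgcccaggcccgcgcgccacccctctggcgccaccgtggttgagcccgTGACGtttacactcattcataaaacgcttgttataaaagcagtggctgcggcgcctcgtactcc
FOSB, chr19:45467746-45467995, strand +: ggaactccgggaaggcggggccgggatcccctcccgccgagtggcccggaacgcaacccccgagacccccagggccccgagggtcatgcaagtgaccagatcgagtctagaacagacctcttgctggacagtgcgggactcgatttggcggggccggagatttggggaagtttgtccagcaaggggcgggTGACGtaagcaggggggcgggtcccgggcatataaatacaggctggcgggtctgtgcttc
NR4A1, chr12:52037465-52037714, strand +: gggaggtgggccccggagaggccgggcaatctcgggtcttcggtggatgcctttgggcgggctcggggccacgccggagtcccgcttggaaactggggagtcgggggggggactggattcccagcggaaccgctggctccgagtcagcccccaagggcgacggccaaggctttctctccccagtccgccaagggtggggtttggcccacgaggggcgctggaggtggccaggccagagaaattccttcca
DUSP1, chr5:172771196-172771445, strand -: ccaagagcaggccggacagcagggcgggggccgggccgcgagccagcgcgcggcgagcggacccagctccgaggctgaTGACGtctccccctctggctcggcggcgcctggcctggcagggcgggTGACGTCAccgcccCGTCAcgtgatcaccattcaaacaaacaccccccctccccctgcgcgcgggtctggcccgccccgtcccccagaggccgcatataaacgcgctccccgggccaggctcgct

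The immediate early genes were also counted by line. In HCT116, 21 of 23 were higher with TAK-981, 13 of them at an unadjusted p under 0.05 (9.22% of all genes in that direction), and in MDA-MB-231 11 of 23 were higher, with 2 at that threshold and 5 below it in the other direction (2.41% and 1.6% of all genes). In the test of the difference by line, 13 of the 23 had an unadjusted p under 0.05, beside 9.99% of all genes, and 0 passed the adjusted threshold by edgeR. Without replicate 1 of TAK-981 in HCT116, 9 of the 23 were higher with TAK-981 and 2 higher with ML-792 at an unadjusted p under 0.05 in the common difference (5.95% and 5.81% of all genes). In HCT116 these counts were 12 and 0 without it (7.45% and 8.37% of all genes).

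NR4A2, an orphan nuclear receptor, was at 105, 90.3 and 94.1 CPM with TAK-981 in HCT116, at 69.3, 56.4 and 63.8 CPM with ML-792 and at 91.6, 95.2 and 113 CPM with DMSO. The ML-792 libraries were thus below both other groups, which overlapped. In MDA-MB-231, NR4A2 was at 32.5, 29.2 and 32.1 CPM with TAK-981 and at 31.7, 28.9 and 33.0 CPM with ML-792. The difference passed the threshold in HCT116 (0.61, SE 0.0762, edgeR adjusted p = 0.0038) and was 0.01 in MDA-MB-231 (interval -0.17 to 0.19).

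In HCT116, 4 immediate early genes were called, where 1.04% of all genes were called as higher with TAK-981. These were NR4A2, its relative NR4A1 (0.72, SE 0.112, edgeR adjusted p = 0.0136), SPRY4 (0.35, SE 0.0465, edgeR adjusted p = 0.00509) and the AP-1 subunit FOSL1 (0.33, SE 0.0601, edgeR adjusted p = 0.021). NR4A1 was at 69.3, 61.8 and 63.5 CPM with TAK-981, 46.1, 31.2 and 40.9 CPM with ML-792 and 54.4, 61.3 and 83.6 CPM with DMSO in HCT116. SPRY4 was at 140, 150 and 145 CPM with TAK-981, 116, 111 and 116 CPM with ML-792 and 81.6, 85.3 and 97.7 CPM with DMSO, so that both compounds were above DMSO and TAK-981 was above ML-792. Without replicate 2 of ML-792 in HCT116 0 of the 4 were called, and without its replicate 3 NR4A2 and SPRY4 were. All 4 were called without replicate 1 of TAK-981, with differences of 0.54 for NR4A2, 0.66 for NR4A1, 0.36 for SPRY4 and 0.31 for FOSL1 and edgeR adjusted p-values of 0.000159 to 0.012. In MDA-MB-231, SPRY4 was at 123, 123 and 124 CPM with TAK-981 and at 113, 120 and 116 CPM with ML-792, again without overlap, with a difference of 0.09 (interval -0.01 to 0.19).

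FOS, FOSB and ATF3, AP-1 and ATF family transcription factors, differed the other way in MDA-MB-231. FOS was at 145, 109 and 117 CPM with TAK-981 there and at 201, 168 and 213 CPM with ML-792, with DMSO at 232, 126 and 160 CPM across both ranges. In HCT116 the groups overlapped, with 544, 433 and 467 CPM against 527, 429 and 482 CPM. The difference was -0.65 in MDA-MB-231 (SE 0.113, edgeR adjusted p = 0.172) and 0.01 in HCT116 (SE 0.109).

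FOSB was at 230, 194 and 217 CPM with TAK-981 and at 177, 129 and 157 CPM with ML-792 in HCT116. MDA-MB-231 cells had it at 35.1, 22.1 and 27.1 CPM with TAK-981 and at 47.5, 37.0 and 48.3 CPM with ML-792. The compounds did not overlap in either line, and their order was opposite. ATF3 was at 32.3, 30.2 and 28.5 CPM against 21.9, 23.6 and 22.1 CPM in HCT116, and at 38.8, 27.0 and 31.0 CPM against 42.6, 41.7 and 51.3 CPM in MDA-MB-231. Its order was opposite in the lines as well. FOSB and ATF3 were among the genes picked by the p of the difference by line, a ranking that favours opposite orders. Neither was called within HCT116 or within MDA-MB-231 by edgeR in the main fit.

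The test of the difference between the lines itself gave 0 calls among 15430 genes by edgeR (0%, lowest adjusted p = 0.226), with 1542 genes at an unadjusted p under 0.05 (9.99%). DESeq2 called 40. The lowest edgeR values were those of ATF3 (difference by line 0.92, SE 0.152) and FOSB (1.13, SE 0.197), both with an adjusted p of 0.226. Without replicate 1 of TAK-981 in HCT116, 7 genes were called, among them ATF3, FOSB, NR4A2 and KLF6. Without replicate 1 of TAK-981 in MDA-MB-231 there were 3, ATF3, FOSB and the clone-named CR936829.

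**Figure D4:**
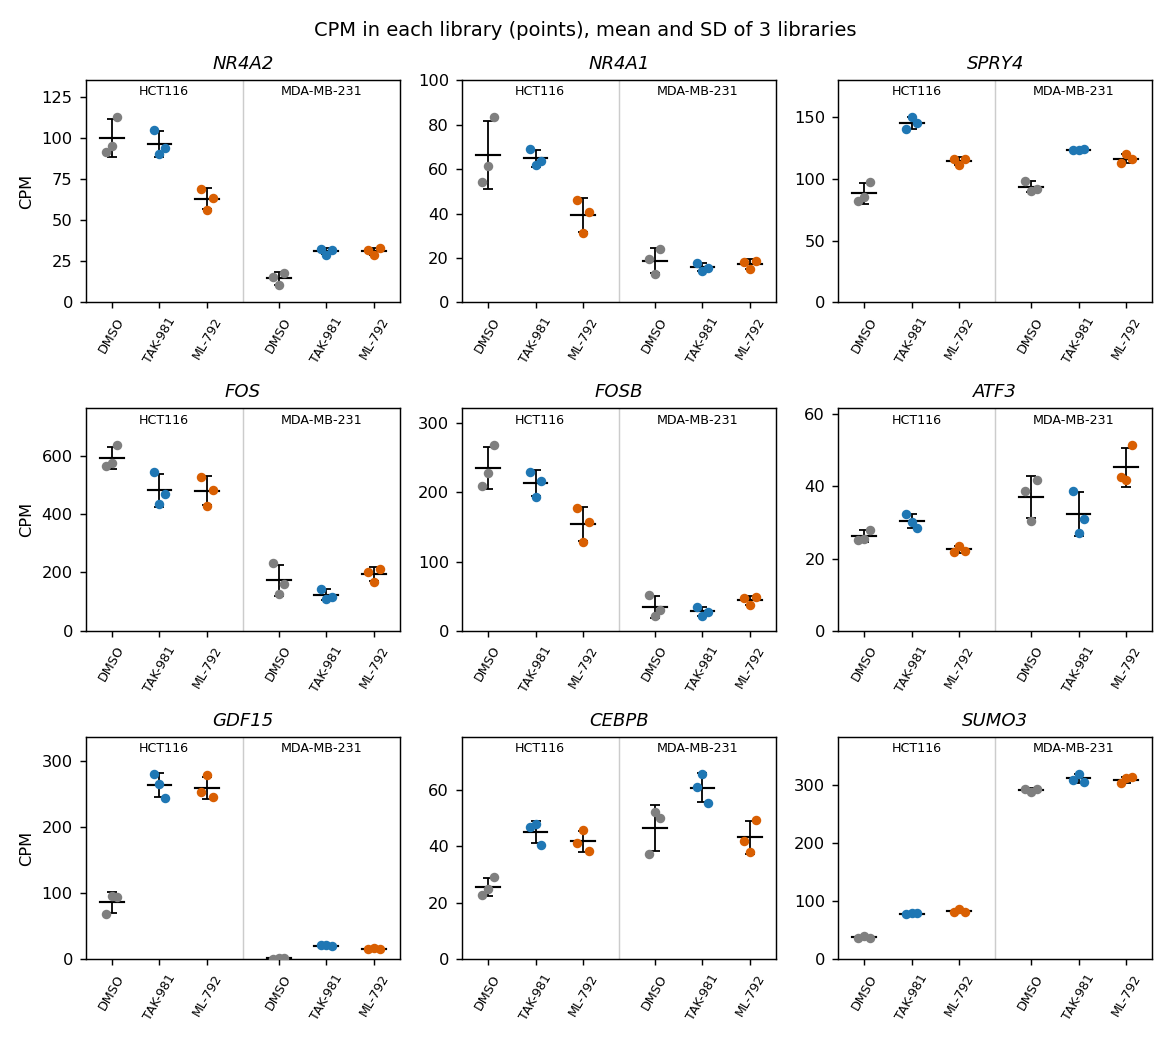
Level in CPM of 9 genes in each library of HCT116 and MDA-MB-231 with DMSO, TAK-981 or ML-792, with points for libraries and bars for the mean and SD of 3. NR4A2, NR4A1 and SPRY4 are higher with TAK-981 than with ML-792 in HCT116, FOS is lower with TAK-981 in MDA-MB-231, and SUMO3 is at nearly the same level with both compounds.

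**Figure D5:**
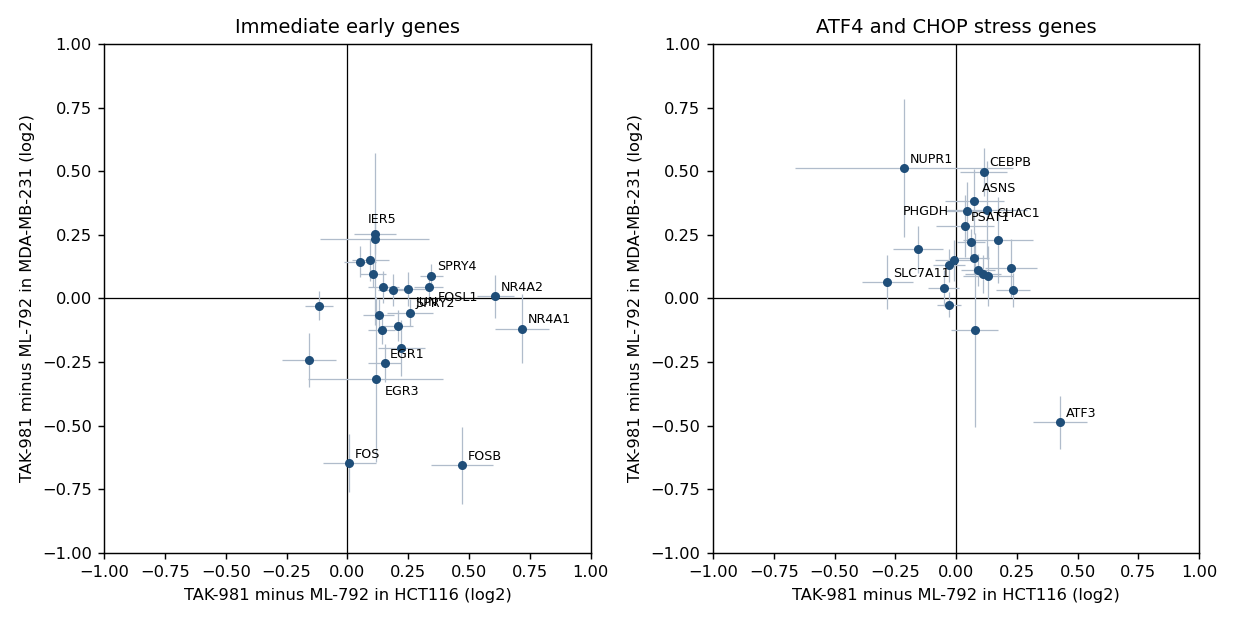
Difference between the compounds, TAK-981 minus ML-792 as log2 values, in HCT116 on the x axis and in MDA-MB-231 on the y axis, for the 23 immediate early genes and 22 of the 23 ATF4 and CHOP stress genes, with error bars for the SE. Of the immediate early genes 21 lie to the right of 0, and ATF4 and CHOP genes mostly above 0.

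ATF4 and CHOP (DDIT3) are transcription factors that are raised when cells lack amino acids or misfolded protein loads the endoplasmic reticulum. Of 23 genes of this stress response, 7 were higher with TAK-981 and 0 higher with ML-792 at an unadjusted p under 0.05, with a median of 0.12, and 0 passed the adjusted threshold by edgeR. These counts were 10 and 0 without replicate 1 of TAK-981 in HCT116. Within HCT116 alone they were 2 and 1, beside 9.22% and 9.2% of all genes. Without that library they were 3 and 1 there, beside 7.45% and 8.37% of all genes. CEBPB, a bZIP transcription factor, was at 60.8, 65.6 and 55.4 CPM with TAK-981 and at 41.9, 38.1 and 49.3 CPM with ML-792 in MDA-MB-231. In HCT116 it was at 46.7, 48.0 and 40.5 CPM against 41.1, 45.8 and 38.2 CPM. The groups were apart in MDA-MB-231 and overlapped in HCT116, and the common difference was 0.31 (SE 0.0813, edgeR adjusted p = 0.268).

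DDIT4, an inhibitor of mTORC1 signalling, was at 143, 134 and 133 CPM with TAK-981 and at 113, 121 and 118 CPM with ML-792 in MDA-MB-231. DMSO was at 143, 155 and 154 CPM there, a mean of 151 CPM against 137 CPM with TAK-981 and 117 CPM with ML-792. Both compounds thus had a lower mean than DMSO in that line. In HCT116 the compounds overlapped, with 68.4, 73.8 and 66.1 CPM against 63.9, 69.3 and 66.7 CPM. Both were above DMSO in HCT116, which was at 38.6, 56.7 and 45.9 CPM. The common difference of DDIT4 was 0.14 (SE 0.0429). The amino acid transporter subunit SLC3A2 differed by 0.12 (SE 0.0461) and the phosphatase subunit PPP1R15A, which reverses the block of translation, by 0.13 (SE 0.0534). The compounds overlapped in HCT116 for SLC3A2 and in MDA-MB-231 for PPP1R15A. Asparagine synthetase, ASNS, differed by 0.22 and DDIT3 by 0.17. In MDA-MB-231, 6 of the 23 were higher with TAK-981 and 1 higher with ML-792 at that threshold, beside 2.41% and 1.6% of all genes. Without that library of HCT116, which shares the estimate of the spread, the counts were 11 and 1, beside 3.74% and 2.68% of all genes.

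GDF15, a stress-induced cytokine of the TGF-beta family, rose with both compounds, by 2.54 in the mean response (SE 0.109, edgeR adjusted p = 1.28e-14). In MDA-MB-231 it was at 1.29, 2.03 and 1.57 CPM with DMSO, at 21.7, 21.2 and 19.7 CPM with TAK-981 and at 15.7, 16.7 and 15.3 CPM with ML-792. In HCT116 it was at 281, 266 and 245 CPM with TAK-981 and at 254, 279 and 246 CPM with ML-792. The compounds were apart in MDA-MB-231 (0.40, SE 0.0792, edgeR adjusted p = 0.386) and overlapped in HCT116 (0.02, SE 0.0587).

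Within MDA-MB-231 alone, 0 of 15430 genes passed the threshold by edgeR (0%, lowest adjusted p = 0.172), and 619 had an unadjusted p under 0.05 (4.01%). DESeq2 called 4, FOS, GDF15, CEBPB and NENF, a secreted neurotrophic protein. NENF, chosen after its values were seen, was at 62.8, 61.0 and 59.6 CPM with TAK-981 and at 45.7, 44.0 and 46.7 CPM with ML-792 in MDA-MB-231, a difference of 0.43 (SE 0.0734). Its groups overlapped in HCT116. Without replicate 1 of TAK-981 in HCT116, whose spread is shared in the fit, 8 genes were called in MDA-MB-231, among them FOS, CEBPB, NENF and IER5, and without replicate 3 of ML-792 in MDA-MB-231 there was 1.

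Within HCT116 alone, 230 of 15430 genes passed the threshold (1.49%), of which 161 were higher with TAK-981 (1.04%) and 69 higher with ML-792 (0.447%). The differences were small, with a median size of 0.43 and 0.30 on the log2 scale, and 7 of the 161 and 0 of the 69 reached 2-fold. Single libraries set this count: it was 0 without replicate 2 of ML-792, 4 without replicate 3 of ML-792, 361 without replicate 1 of ML-792 and 771 without replicate 3 of TAK-981. Leaving out any 1 of the 6 MDA-MB-231 libraries, which share the estimate of the spread, gave 99 to 153. Without replicate 1 of TAK-981, the library that stood apart, it was 287, of which 187 were among the 230. With the 6 DMSO libraries in the fit it was 62. NR4A2 and SPRY4 were among the 4 genes that were called without replicate 3 of ML-792.

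The 161 genes higher with TAK-981 held fewer current gene symbols than the genes tested, 71.4% against 84.8%, the rest being clone names, older symbols and numbered copies. Those with current symbols included the cyclins of splicing speckles CCNL1 (0.33) and CCNL2 (0.49), the kinase SIK1 (0.49), the glycosyltransferase OGT (0.36), the laminin chain LAMA5 (0.41) and the UFM1 ligase cofactor CDK5RAP3 (0.45). These 6 were chosen after their values were seen. LIF, a cytokine of the IL-6 family, was at 133, 129 and 131 CPM with TAK-981 and at 117, 94.2 and 101 CPM with ML-792, and passed the threshold (0.33, SE 0.0696, edgeR adjusted p = 0.0311). CYR61, a matrix protein and target of YAP, was also called (0.26, SE 0.0614, edgeR adjusted p = 0.0473). With replicate 1 of TAK-981 left out, LIF was called (0.31, edgeR adjusted p = 0.0175) and CYR61 was not (0.20, edgeR adjusted p = 0.0764).

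The 69 genes higher with ML-792 included the replicative helicase subunits MCM4 and MCM6, both with a difference of -0.22. MCM4 was at 220, 236 and 243 CPM with TAK-981, 269, 268 and 277 CPM with ML-792 and 303, 284 and 273 CPM with DMSO in HCT116. TAK-981 was thus the lowest group without overlap with ML-792. DLGAP5, a spindle protein, was called as well, with 97.6, 102 and 93.0 CPM against 111, 114 and 116 CPM (-0.22, SE 0.0475, edgeR adjusted p = 0.0337), while DMSO was at 88.0, 76.9 and 73.7 CPM. EIF2AK2, the interferon-induced kinase PKR, was at 32.1, 35.2 and 36.7 CPM with TAK-981 and at 40.0, 43.0 and 50.2 CPM with ML-792 (-0.36, SE 0.078, edgeR adjusted p = 0.0337). MCM4, MCM6, DLGAP5 and EIF2AK2 were all called without replicate 1 of TAK-981 too, with differences of -0.19, -0.19, -0.22 and -0.32.

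Set beside DMSO, with which both compounds share the same 3 HCT116 libraries, the called genes were spread over both compounds. Of 157 genes higher with TAK-981 that had a fold, 37 rose and 2 fell with TAK-981 (10.9% and 9.99% of all genes), with a median of 0.17. With ML-792, 5 of them rose and 68 fell (8.77% and 7.65% of all genes), with a median of -0.32. Of the 69 higher with ML-792, 1 rose and 30 fell with TAK-981, and 22 rose and 5 fell with ML-792. These counts describe genes chosen for the difference and carry no test.

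The HCT116 calls were looked up in MDA-MB-231, which shares the filter and the estimate of the spread with the fit that chose them. Of the 161 genes higher with TAK-981 in HCT116, 71 were higher with TAK-981 in MDA-MB-231 too, where 48.3% of all genes were. Among them 5 had an unadjusted p under 0.05 in the same direction and 2 in the opposite one, beside 2.41% and 1.6% of all genes. Of the 69 genes higher with ML-792, 39 were higher with ML-792 in MDA-MB-231 too, where 48.3% of all genes were higher with TAK-981.

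Colo205, a further colorectal carcinoma line with 3 libraries of each compound, was used as a check outside the pooled lines. There 2 of 13894 genes were called (0.0144%), DKFZp686D16130 and LOC642852, and 1465 had an unadjusted p under 0.05 (10.5%). Replicate numbers paired the libraries of Colo205, with correlations of their deviations of 0.309, 0.404 and 0.378 over genes with at least 10 CPM, and with the replicate block 737 genes were called, 416 higher with TAK-981 and 321 higher with ML-792. With no block the count was 763 without replicate 2 of ML-792 and 0 or 1 without any of the other 5 libraries. Of the 154 genes tested that were higher with TAK-981 in HCT116, 33 had the same sign in Colo205, where 49.5% of all genes were higher with TAK-981. In the opposite direction 28 had an unadjusted p under 0.05, beside 660 of the 13065 genes of the pooled fit with a fold in Colo205. The median of the 154 was -0.10. With the block 16 of the 154 were called in the opposite direction and 1 in the same, beside 321 and 416 of all 13894 genes. Of the 64 higher with ML-792, 15 had the same sign. With the block 3 of the 64 were called in the opposite direction, beside 416 of all 13894 genes.

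The other gene groups gave small differences. Among 20 genes of silencing complexes, 6 were higher with ML-792 at an unadjusted p under 0.05 and 2 higher with TAK-981, with a median of 0.01. FAM208A, a subunit of the HUSH complex that silences repeats, was at 77.7, 87.8 and 88.7 CPM with TAK-981 and at 97.6, 96.6 and 101 CPM with ML-792 in HCT116. In MDA-MB-231 it was at 120, 131 and 133 CPM against 135, 135 and 134 CPM, and its common difference was -0.14 (SE 0.0431, edgeR adjusted p = 0.298). The heterochromatin protein CBX5 differed by -0.17 (SE 0.0556).

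Among 41 interferon-stimulated genes, 1 was higher with TAK-981 and 6 higher with ML-792 at an unadjusted p under 0.05, with a median of -0.01. IRF7, the interferon regulatory factor, was the one higher with TAK-981 (0.28, SE 0.0882), and the antiviral SAMD9 (-0.13, SE 0.0463), EIF2AK2 (-0.18, SE 0.0675) and IFIT1 (-0.15, SE 0.0648) were among the others. Of 22 genes of MHC class I presentation, 3 were higher with TAK-981 and 0 higher with ML-792 at that threshold, with a median of 0.05. Of 25 NF-kB and inflammation genes the counts were 5 and 1. Among these, IL6 had almost no counts in HCT116 and stood in MDA-MB-231 at 75.1, 72.4 and 71.8 CPM with TAK-981 and 66.5, 55.7 and 64.4 CPM with ML-792, a difference of 0.24 there (SE 0.0686).

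Of 28 p53 target genes, 5 were higher with TAK-981 and 2 higher with ML-792 at an unadjusted p under 0.05, with a median of 0.01. GADD45A, a growth arrest and DNA damage gene, differed by 0.17 (SE 0.0505) and CCNG1, cyclin G1, by -0.13 (SE 0.0375). CDKN1A, the cell cycle inhibitor p21, was at 195, 219 and 221 CPM with TAK-981 and at 206, 225 and 200 CPM with ML-792 in HCT116, overlapping groups with a difference of 0.01. Its DMSO libraries were at 127, 143 and 143 CPM.

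Of 34 mitosis genes, 25 rose in the mean response, where 11.9% of all genes rose. In HCT116, TAK-981 raised 29 of them and ML-792 raised 32 (10.9% and 8.77% of all genes), with a median of 0.36 for each. In MDA-MB-231, the compounds raised 1 and 2 of them in the same order (5.51% and 6.45% of all genes), with medians of -0.03 and 0.00. The compounds share their DMSO libraries in each line. Between the compounds, 1 mitosis gene was higher with TAK-981 and 5 higher with ML-792. Of 35 genes of DNA replication, 20 fell in the mean response, where 11.4% of all genes fell, and 3 were higher with ML-792 and 0 with TAK-981. Metabolic groups leaned to ML-792 or to neither: 4 of 22 NRF2 and antioxidant genes were higher with ML-792, among them GCLC, of glutathione synthesis (-0.12, SE 0.0344), and 3 of 14 genes of fatty acid synthesis. Of 26 genes of cholesterol synthesis, 1 was higher with each compound in the common difference, while in HCT116 alone 10 were higher with ML-792 and 1 with TAK-981 (9.2% and 9.22% of all genes). When replicate 1 of TAK-981 in HCT116 was left out, 4 were higher with ML-792 and 2 with TAK-981 in the common difference, and 13 and 0 in HCT116 (8.37% and 7.45% of all genes). The counts of genes higher with one compound, here and in the gene groups above, are at an unadjusted p under 0.05 unless called, and 0 members of these lists passed the adjusted threshold in the common difference by edgeR.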

How the data were processed

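RNA-seq libraries of HCT116 and MDA-MB-231 with TAK-981, ML-792 or DMSO, and of Colo205 as a check, were used as their labels group them. Per the labels, poly(A) libraries were made with a TruSeq kit from RNeasy-purified RNA and read from both ends on a NovaSeq. Which aligner, counting tool, genome build and strand setting were used was not given in the sources used here. Per the file headers, a deposited file lists an expected count and an FPKM for each gene. The authors' estimated counts are not normalized, and 21.4% to 25.2% of the counts in the 12 libraries fell on genes whose value was fractional. The deposited FPKM values, scaled by the authors for gene length and depth, served one alternative. Each file listed 30373 rows, of which 19535 matched a current gene symbol.

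Counts were rounded and fitted with the quasi-likelihood F-test of edgeR 4.0.16 under R 4.3.3, after TMM scaling and a filter by filterByExpr that asks for 10 counts in enough libraries and 15 in all. The pooled fit had compound and line as terms. A fit of 4 groups gave the difference within each line and by line, and a fit of 18 libraries the mean response against DMSO. A call is an adjusted p (Benjamini-Hochberg) below 0.05. Differences are log2 values, TAK-981 minus ML-792, with standard errors and intervals at the 95% level from the fit. CPM values are counts relative to library size, scaled by TMM. Scripts were tested on simulated data. No pair of replicates was identical or alike within sampling noise. Counting error shrinks as the level rises, and near 10 CPM it can still make up much of the SE. Its share beside the spread between libraries was not measured.

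The members, gene lists and tests were chosen with earlier results of these data known. Named genes were, by rule, those with the smallest p in the pooled fit at 5 CPM or more (up to 5 each way, since none was called), up to 4 members of smallest p per list, the genes of the target enzyme and of SUMO, the largest mean responses and the smallest p for the difference by line. The rule allowed clone-named and predicted genes to be passed over. Some genes that the rule names are left out here.

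Same-numbered libraries were compared by the correlation of their deviations from the group means. With TAK-981 and ML-792 in Colo205, all 3 correlations were over 0.1 among genes with at least 10 CPM, and 0.0389 to 0.0835 over all genes tested. They were taken as paired there on the first measure. In HCT116 and MDA-MB-231 not all were over 0.1. Alternatives were other size factors, no filter, a filter at 5 CPM, the replicate block, DESeq2 1.42.0, limma 3.58.1 on log2(FPKM + 1) and log2(FPKM + 0.1), other sets of libraries in the fit, and each library left out in turn.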

Additional observations from a re-analysis of the deposited data

How the results depend on the processing

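The count of calls in the common difference stayed at 0 with relative log expression size factors, the DMSO libraries in the fit, a filter at 5 CPM, Colo205 added, the mean of the within-line contrasts (lowest adjusted p = 0.0552), and limma with either pseudocount. It was 18 with no filter on low counts, 2 with the replicate block, 24 with DESeq2, and 0 to 5 with 1 library left out. In HCT116, 230 calls became 584 with no filter, 821 with the replicate block, 739 with DESeq2, 62 with the DMSO libraries in the fit, and 0 to 771 with 1 library left out. In MDA-MB-231, 0 calls became 6 with no filter, 3 with the replicate block, 4 with DESeq2, and 0 to 8 with 1 library left out. The difference by line went from 0 to 25 with no filter, 28 with the block, 40 with DESeq2, and 0 to 7 with 1 library left out. Colo205 went from 2 to 23 with no filter, 737 with the block, 16 with DESeq2, and 0 to 763 with 1 library left out. The mean response held 2948 to 4164 calls with 1 library left out and 3433 to 3688 otherwise. The cause of these shifts was not tested.

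Same-numbered TAK-981 and ML-792 libraries correlated at 0.199, 0.0163 and 0.0665 in HCT116 and at 0.103, 0.268 and -0.0941 in MDA-MB-231 over genes with at least 10 CPM, so that the pairing is by number only there. The 3 calls with the block in MDA-MB-231 were FOS, FOSB and LOC284454. Of the named genes, 10 were refitted in HCT116, 24 in the common difference and 20 in the mean response. Among these no called value reversed in the settings run, but 0 of the 24 were called in the main fit, so little could reverse there. Their sign changed in 10 of 288 values with 1 library left out and in 7 of 239 otherwise. In HCT116 a call was lost in 15 of 120 values with 1 library left out and in 2 of 50 otherwise. Wide intervals at a few CPM, and 1 dose and 1 time, limit the comparison.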
